A study of Mus musculus with 12 samples.

Results

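The 43 genes described here encode Toll-like receptors (TLRs), NOD-like receptors (NLRs), the adaptors and kinases that carry their signals, and adaptor proteins with a CARD domain. They were chosen by symbol: Myd88, and every gene whose symbol begins with Tlr, Nlr, Naip, Irak, Ticam or Tirap, with Card and a number, or with Pycard, together with Nod1 and Nod2. They were 43 of the 13553 genes in the deposited expression table of mouse bone marrow derived macrophages. Of these, 39 reached 1 CPM (counts scaled to a common library size) in at least 3 libraries and were tested among 12116 genes. Card14, Tlr5, Tlr11 and Tlr12 did not reach it and are given as levels only.

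Marrow from C57BL/6 mice, all male and wild-type, was grown for 7 days in medium containing M-CSF (10 ng/mL), which turns marrow precursors into macrophages. Naive macrophages then had control medium without IL4 for 24 h, although another label of the same samples gives this step as PBS, and IL4 macrophages had 20 ng/mL IL4 over the same 24 h. After a wash, both kinds were exposed for 6 h to 1 µM all-trans retinoic acid (RA) in DMSO or to DMSO alone, the vehicle. The 4 groups of 3 libraries are named by state and exposure (naive vehicle, naive RA; IL4 vehicle, IL4 RA), and libraries are numbered 2, 3 and 4 in each, the order in which values are listed. The age of the mice is not given in the sources used here, nor whether the libraries of a group came from separate animals or cultures, so p-values speak only of the spread among these libraries, which may be technical. RA, a metabolite of vitamin A, activates nuclear receptors that bind DNA, and IL4 is the cytokine used to bring macrophages into the alternatively activated state.

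TLRs at the plasma membrane recognise lipids and proteins of microbes, and most of those in endosomes recognise nucleic acids. Most signal through the adaptor Myd88 and the IRAK kinases to NF-kB, while Tlr3 signals through Ticam1. NLRs sense bacterial products or damage in the cytosol: Nod1 and Nod2 act through the kinase Ripk2, and NAIP, NLRC4 and NLRP proteins assemble inflammasomes that activate caspase 1, often through the CARD adaptor Pycard. Card9 and Card10 are scaffolds that bring Bcl10 and Malt1 together to activate NF-kB.

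Values are the authors' log2 CPM. A depth estimated from the smallest steps between low values was 30.8 to 48.5 M reads per library, lowest in the IL4 RA group (30.8 to 32.3 M), and 1 read was worth 0.0206 to 0.0325 CPM. The value -3.67, the lowest in the table, stands for 0 reads. The exons of Irak2, Irak3, Irak4, Nlrc5, Nlrx1, Pycard, Tirap, Tlr3 and Card14 overlap those of antisense genes by 28 to 955 bases, and the use of strand in counting is not stated in the sources used here. The 9 macrophage markers examined were all expressed, with Csf1r at 11.58 log2 CPM or more in every library, and their summed level was 36800 to 41150 CPM in naive and 21070 to 23780 CPM in IL4 libraries. Lyz2, the largest part of that sum, lay at 14.61 to 14.83 log2 CPM in naive and 13.71 to 13.93 in IL4 libraries, while Cd68 (10.28 to 10.41 and 10.29 to 10.45) and Itgam (10.01 to 10.11 and 10.06 to 10.30) were not lower.

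RA raised a small set of these genes, 5 of them in both kinds of macrophage. In naive macrophages, 5 of the 39 tested members rose, among them Naip1, Irak2, Irak3 and Tlr4, beside 3.24% of all tested genes called higher. None fell beside 3.03% of all tested genes, by limma with Benjamini-Hochberg adjustment over all tested genes and a call at adjusted p under 0.05, and 0 members had a lower value at an unadjusted p under 0.05. In IL4 macrophages, the same 5 rose beside 6.5% of all tested genes. Card10 was a sixth past the threshold, but it passed the filter only through the IL4 RA libraries where it is high, and its differences are given below as a description. In the other direction, 4 fell (Nlrc5, Tlr3, Nod2 and Tlr2) beside 5.18%. The groups did not overlap for any of these calls, nor for 99.3% of all genes called in naive and 98.8% in IL4 macrophages. The list as a whole was centred near 0: the median log2 difference over the members was -0.01 in naive and 0.01 in IL4 macrophages, beside -0.00 and 0.00 over all tested genes. These contrasts share no library. Of all genes called higher, 313 were called in both, 79.8% of the 392 in naive and 39.7% of the 788 in IL4 macrophages, and among the members 5 were called in both.

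**Figure D1:**
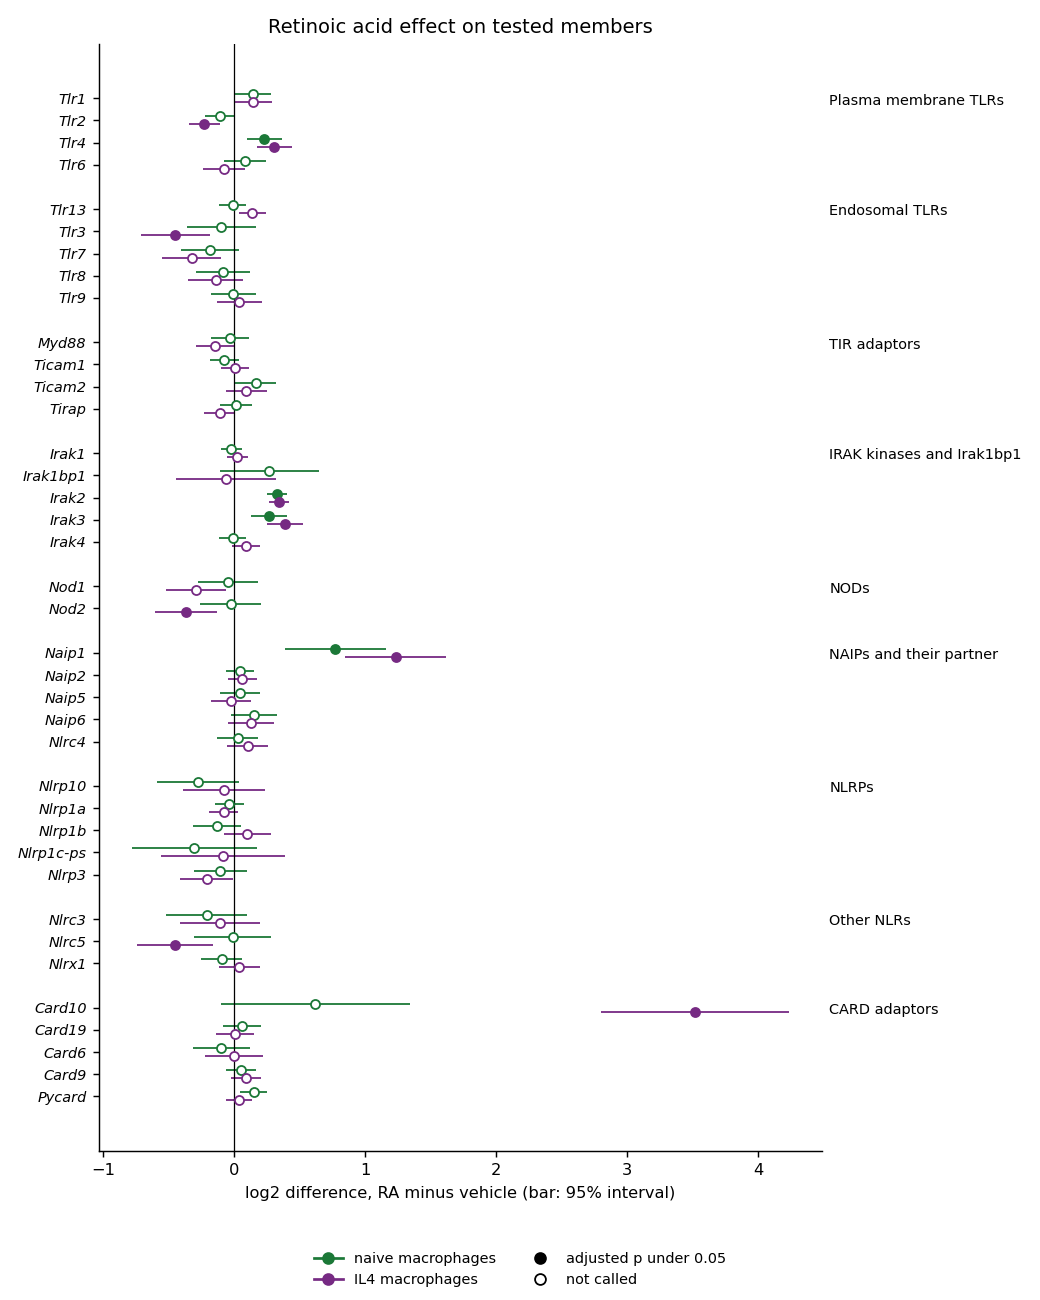
Log2 difference between RA and vehicle for all but 1 of the 39 tested members, grouped by role, in naive (green) and IL4 (purple) macrophages, with 95% intervals of the limma fit; filled circles are called at adjusted p under 0.05. Card10 in IL4 macrophages lies farthest right at 3.51, and Naip1 lies to the right in both states.

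Among receptors at the plasma membrane, Tlr4, which recognises lipopolysaccharide, rose with RA. Tlr4 measured 7.38, 7.56 and 7.50 log2 CPM in naive vehicle and 7.59, 7.74 and 7.81 in naive RA libraries, and 6.97, 6.94 and 7.01 in IL4 vehicle and 7.31, 7.18 and 7.34 in IL4 RA libraries. Each RA group lay above its vehicle group, by a narrow margin in naive macrophages. The log2 difference was 0.23 (SE 0.06, adjusted p = 0.0419) in naive and 0.31 (SE 0.06, adjusted p = 0.00579) in IL4 macrophages. The call in naive macrophages ended without naive vehicle 2 (adjusted p = 0.156) or 4 (0.11), naive RA 3 (0.134) or 4 (0.175), IL4 vehicle 2 (0.0507), 3 (0.0592) or 4 (0.053), or IL4 RA 4 (0.0504), and with the naive groups alone (0.0784) or no intensity trend (0.0958).

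Tlr2, which recognises bacterial lipopeptides as a partner of Tlr1 or Tlr6, went the other way. It measured 8.46, 8.40 and 8.29 log2 CPM in IL4 vehicle and 8.27, 8.11 and 8.08 in IL4 RA libraries, and the highest IL4 RA library lay just under the lowest IL4 vehicle library. The fall was 0.23 on the log2 scale (a difference of -0.23, SE 0.05, adjusted p = 0.0153), and in naive macrophages the difference was -0.11 (adjusted p = 0.3). Tlr1 and Tlr6 were not called in either state (log2 differences between -0.08 and 0.15). The endosomal receptor Tlr3, which senses double-stranded RNA, measured 5.67, 5.44 and 5.41 log2 CPM in IL4 vehicle and 5.23, 4.92 and 5.04 in IL4 RA libraries, so that all 3 treated libraries were the lower ones. Its log2 difference was -0.45 (SE 0.12, adjusted p = 0.0298) in IL4 and -0.10 (adjusted p = 0.727) in naive macrophages. The other 4 tested endosomal receptors were not called: Tlr7 differed by -0.18 in naive and -0.32 in IL4 macrophages (adjusted p = 0.366 and 0.0609), and Tlr8 and Tlr9 lay between -0.14 and 0.14 in both. In IL4 macrophages the Tlr7 groups did not overlap, and the fall was called under 6 alternatives, among them only the groups compared (0.00452), library weights (0.0231) and without naive RA 2 (0.0209). Tlr13 differed by -0.01 in naive macrophages, and measured 8.55, 8.59 and 8.69 log2 CPM in IL4 vehicle and 8.75, 8.68 and 8.81 in IL4 RA libraries. The groups overlapped slightly although each RA library lay above the vehicle library of its number, and the difference of 0.14 (adjusted p = 0.0821) was called with the replicate block (0.0321).

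No TIR adaptor, the proteins that bind the cytoplasmic tails of TLRs, was called under RA. Myd88, shared by most TLRs, measured 7.124, 7.149 and 7.111 log2 CPM in naive vehicle, 7.072, 7.094 and 7.12 in naive RA, 7.267, 7.095 and 6.91 in IL4 vehicle and 7.001, 6.9 and 6.94 in IL4 RA libraries. The groups overlapped in both states, and the log2 differences were -0.03 (adjusted p = 0.85; 95% interval -0.18 to 0.11) and -0.14 (adjusted p = 0.196; 95% interval -0.29 to 0.00). Without IL4 vehicle 4 the latter was called (0.013). Tirap, the bridging adaptor of Tlr2 and Tlr4, Ticam1 and Ticam2 differed by -0.11 to 0.17 over both states.

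Of the IRAK family, Irak2 and Irak3 rose with RA in both states. Irak2, a kinase-like member that sustains TLR signalling, measured 6.94, 6.94 and 6.90 log2 CPM in naive vehicle and 7.24, 7.27 and 7.25 in naive RA libraries, and 7.04, 7.06 and 7.02 in IL4 vehicle and 7.45, 7.33 and 7.37 in IL4 RA libraries. All 6 RA libraries lay above all 6 vehicle libraries. The rise was 0.33 (SE 0.04, adjusted p = 7.76e-05) in naive and 0.34 (SE 0.04, adjusted p = 3.24e-05) in IL4 macrophages, a fold of 1.25 and 1.27. In all, 8.01% of the 31-base words of its transcripts also occur in other genes, 5.82% in the predicted gene Gm7229.

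Irak3, which inhibits signalling by the other IRAKs, measured 6.78, 6.67 and 6.84 log2 CPM in naive vehicle and 7.03, 6.99 and 7.08 in naive RA libraries, and 6.02, 5.92 and 5.93 in IL4 vehicle and 6.51, 6.30 and 6.24 in IL4 RA libraries. RA libraries were the higher ones within each state, while all IL4 libraries lay below all naive ones. It rose by 0.27 (SE 0.06, adjusted p = 0.0233) and by 0.39 (SE 0.06, adjusted p = 0.00129). The call in naive macrophages ended without naive vehicle 2 (0.0566) or 3 (0.0776), without naive RA 2 (0.0562) or 4 (0.0948), and with no intensity trend (0.0618). Irak1, Irak4 and Irak1bp1, which encodes a protein that binds Irak1, were not called under RA in either state.

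The promoters of the IRAK genes called in both states are shown with that of Card10, the member that changed most, because RA receptors bind DNA at repeats of the motif AGGTCA. The windows run from 250 bases before to 50 bases after a start site in RefSeq GRCm38.p6, 5′ to 3′ on the gene's strand, and capitals mark that motif on either strand.
Irak2, chr6:113638217-113638516, plus strand: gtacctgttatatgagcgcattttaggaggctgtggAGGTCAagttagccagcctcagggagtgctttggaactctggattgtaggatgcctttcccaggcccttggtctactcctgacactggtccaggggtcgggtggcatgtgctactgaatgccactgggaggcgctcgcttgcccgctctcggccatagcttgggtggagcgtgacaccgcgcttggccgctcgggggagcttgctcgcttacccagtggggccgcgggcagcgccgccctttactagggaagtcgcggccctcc
Irak3, chr10:120201548-120201847, minus strand: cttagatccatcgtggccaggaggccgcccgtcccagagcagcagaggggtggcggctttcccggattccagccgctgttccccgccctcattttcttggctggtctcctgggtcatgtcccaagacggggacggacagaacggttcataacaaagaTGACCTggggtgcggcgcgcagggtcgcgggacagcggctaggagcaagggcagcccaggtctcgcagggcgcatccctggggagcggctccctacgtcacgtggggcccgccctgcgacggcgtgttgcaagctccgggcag
Card10, chr15:78802993-78803292, minus strand: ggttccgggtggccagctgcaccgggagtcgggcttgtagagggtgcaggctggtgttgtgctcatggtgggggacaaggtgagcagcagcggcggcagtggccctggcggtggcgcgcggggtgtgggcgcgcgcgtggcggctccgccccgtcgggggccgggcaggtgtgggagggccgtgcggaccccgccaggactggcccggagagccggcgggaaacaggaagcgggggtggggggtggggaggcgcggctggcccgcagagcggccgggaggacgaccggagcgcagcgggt
The Irak2 window held 1 copy at position -214 from the start site, and this Irak3 window held 1, on the other strand, at -93. A second Irak3 window, at another start site, and the windows of Card10 and Naip1 held none. Over the 34 members with a window in the RefSeq table (43 windows), 9 windows held it, in Card19, Irak2, Irak3, Irak4, Nlrx1, Nod1, Tlr2, Tlr5 and Tlr9, beside 16.3% of all 32851 windows. For IL4, whose factor STAT6 binds a palindrome, TTCNNNNGAA was found in 4 member windows (Nlrp1a, Nlrp1b, Nlrp3 and Tlr8) beside 6.95% of all windows, and TTCNNNGAA in 7 (in Myd88, Nlrx1, Nod1, Tlr1, Tlr6 and Tlr8) beside 8.3%, on both strands. No match of one motif overlapped a match of another. A match is a description of these letters and not a bound site. Tlr4, called in both states, was among the 9 members with no window in that table.

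Of the NAIPs, inflammasome receptors for proteins of bacterial flagella and secretion needles, Naip1 rose in both states. Naip1, a receptor for the needle protein of type III secretion, measured 0.78, 1.39 and 1.13 log2 CPM in naive vehicle and 1.54, 2.00 and 2.09 in naive RA libraries, and 1.24, 1.24 and 1.24 in IL4 vehicle and 2.19, 2.67 and 2.54 in IL4 RA libraries. The IL4 RA libraries held the 3 highest values of all 12. The log2 difference was 0.77 (SE 0.18, adjusted p = 0.0206) in naive and 1.23 (SE 0.18, adjusted p = 0.000535) in IL4 macrophages. The call in naive macrophages ended without naive vehicle 2 (0.0834) or 4 (0.0676), without naive RA 3 (0.0839) or 4 (0.0977), and with the naive groups alone (0.0578). Naip1 lies on chromosome 13 (100407770 to 100452864, minus strand, GRCm38) in a cluster with Naip2, Naip5 and Naip6, and 44.3% of the 31-base words of its transcripts also occur in transcripts of other genes, 32.8% in those of Naip3, so its level is uncertain. Naip2, Naip5 and Naip6 differed by -0.02 to 0.15 under RA and were not called, nor was their partner Nlrc4 (0.03 and 0.10).

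The NLRs that fell with RA did so in IL4 macrophages. Nlrc5, the transactivator of MHC class I genes, measured 7.41, 7.38 and 7.17 log2 CPM in IL4 vehicle and 7.07, 6.83 and 6.71 in IL4 RA libraries. Nod2, a sensor of bacterial peptidoglycan, measured 4.45, 4.32 and 4.23 in IL4 vehicle and 4.11, 4.01 and 3.77 in IL4 RA libraries. In both genes the 3 RA libraries were the lower ones, with a gap to the vehicle libraries that was smaller than the spread within either group. The log2 difference was -0.45 (SE 0.13, adjusted p = 0.0456) for Nlrc5 and -0.37 (SE 0.11, adjusted p = 0.0451) for Nod2, and in naive macrophages -0.01 and -0.03 (adjusted p = 0.976 and 0.932). Nod1, the other peptidoglycan sensor, measured 5.17, 5.00 and 4.74 log2 CPM in IL4 vehicle and 4.77, 4.73 and 4.54 in IL4 RA libraries, which overlapped (log2 difference -0.29, adjusted p = 0.0973). All 4 falls in IL4 macrophages were close to the threshold. On omitting IL4 vehicle 2, IL4 vehicle 3, IL4 RA 3 or IL4 RA 4, each of them ended. In that order the adjusted p was 0.135, 0.131, 0.133 and 0.154 for Nlrc5 and 0.148, 0.103, 0.0902 and 0.162 for Nod2. For Tlr3 it was 0.116, 0.0571, 0.128 and 0.0829, and for Tlr2 0.064, 0.0545, 0.0694 and 0.0647. The falls of Nlrc5 and Nod2 were also lost on omitting naive vehicle 4 (0.0639 and 0.062) or naive RA 3 (0.0621 and 0.0616), and that of Nod2 on omitting IL4 vehicle 4 (0.0523). No intensity trend ended the calls of Nlrc5, Nod2 and Tlr3 (0.0947, 0.0799 and 0.0678), robust moderation those of Nlrc5 and Tlr3 (0.116 and 0.0647), and quantile normalization that of Nlrc5 (0.0516).

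Nlrp3, the receptor of the best known inflammasome, measured 6.99, 6.96 and 6.97 log2 CPM in naive vehicle, 6.90, 6.82 and 6.88 in naive RA, 7.04, 6.83 and 6.67 in IL4 vehicle and 6.83, 6.65 and 6.43 in IL4 RA libraries. The naive groups stood apart by a small step and the IL4 groups overlapped. The log2 differences were -0.11 (adjusted p = 0.59; 95% interval -0.30 to 0.10) and -0.21 (adjusted p = 0.184; 95% interval -0.41 to -0.01), and neither was called. Without IL4 RA 2 the latter was called (0.0473). The other NLRPs, Nlrc3 and Nlrx1 were not called under RA, with differences from -0.30 to 0.10.

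Card10, a CARD scaffold best known from non-haematopoietic cells (chromosome 15, 78775123 to 78803072, minus strand, GRCm38), was near the floor except with IL4 and RA together. It was at 0 reads in all 3 naive vehicle libraries (-3.67 log2 CPM), and measured -3.24, -3.25 and -2.67 in naive RA, -2.03, -2.28 and -2.31 in IL4 vehicle and 1.38, 1.43 and 1.12 in IL4 RA libraries. By the estimated depth these were about 0, 0 and 0, then 1, 1 and 3, then 6, 4.9 and 6, then 77.9, 84.4 and 66.6 reads. The 4 groups did not overlap, and the IL4 RA libraries stood far above the rest. The gene entered the test only through those 3 libraries. The log2 difference between RA and vehicle in IL4 macrophages was 3.51 (SE 0.33), which includes the authors' prior count, and 1.52 on the log2(CPM + 1) scale. No p-value is given as support, because the gene was tested only on account of the group in which it is high. Against an assumed floor of 3 reads over the naive vehicle group, IL4 RA was about 103-fold higher, with no allowance for error in either count. Naive RA and IL4 vehicle (4.9 to 6 reads per library) lay near the floor, as did naive vehicle. Log2 differences between these groups therefore depend on the prior count and give no firm fold.

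**Figure D2:**
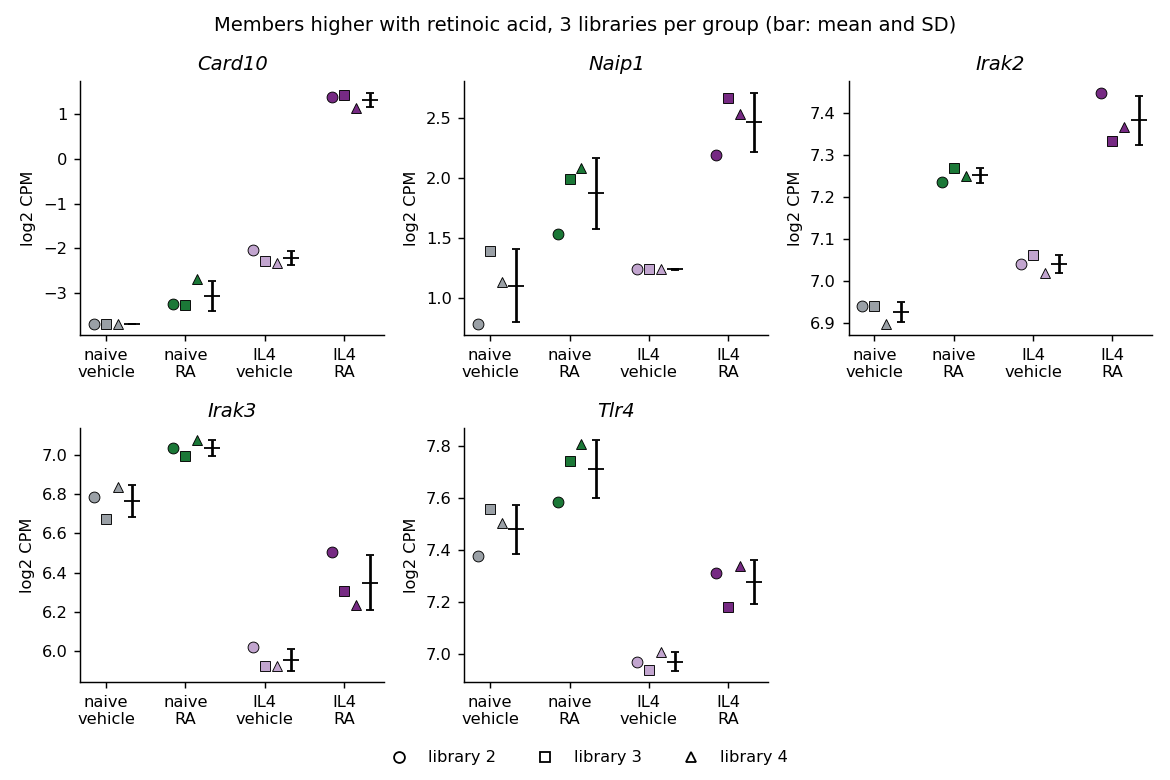
Log2 CPM in each library of 5 of the 6 members past the threshold with RA in IL4 macrophages; symbols mark the library number, and the bars beside them the mean and SD of the 3 libraries. Card10 reaches 1.12 to 1.43 log2 CPM in the IL4 RA libraries and lies at -2.03 or lower in the other 9.

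Whether IL4 changed the response to RA was tested as the difference between both RA effects. Card10 was the 1 member past the threshold, with a higher value, beside 0.338% of all tested genes. Its RA effect was larger in IL4 macrophages by 2.90 (SE 0.47, adjusted p = 0.0212), but it was tested only through the IL4 RA libraries that make this difference, so the p-value is no independent support. No member was called lower, beside 0.0413%, by limma, although 2 members in each direction had an unadjusted p under 0.05. The Card10 call ended without naive vehicle 4 (0.0521), naive RA 3 (0.0676) or IL4 vehicle 3 (0.0524), and without any 1 of the IL4 RA libraries the gene did not enter the test. For Naip1, Irak2, Irak3 and Tlr4 the adjusted p of the difference was 0.676, 0.963, 0.765 and 0.871, and for Nlrc5, which was called in IL4 macrophages, it was 0.569 (-0.44). Effects called in only 1 state are therefore not shown to differ between states.

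Markers of other cells moved with RA in part. Summed Itga2b, Pf4 and Ppbp, 3 of the 7 megakaryocyte and erythroid markers examined, lay at 26.2 to 33.1 CPM in naive vehicle and 45.5 to 64.3 CPM in naive RA libraries, and at 20.9 to 33.6 and 41.8 to 58.2 CPM in the IL4 groups. Most of this sum was Pf4, at 4.65 to 4.98 log2 CPM in naive vehicle, 5.42 to 5.95 in naive RA, 4.30 to 5.00 in IL4 vehicle and 5.33 to 5.81 in IL4 RA libraries, and Itga2b overlapped between RA and vehicle in both states. Ppbp was also higher with RA, at -1.20 to 0.01 log2 CPM in naive vehicle and 0.62 to 0.96 in naive RA libraries. It lay at -0.94 to -0.35 in IL4 vehicle and 0.13 to 0.52 in IL4 RA libraries. In IL4 macrophages the summed eosinophil markers Siglecf and Ccr3 lay at 68.8 to 86.0 CPM in vehicle and 86.2 to 104.5 CPM in RA libraries. The summed dendritic cell markers overlapped there, at 73.6 to 100.5 CPM in vehicle and 73.8 to 107.0 CPM in RA libraries. Of these, Clec9a lay higher with RA (-0.44 to 0.28 and 0.57 to 0.79 log2 CPM). Zbtb46 lay lower with RA (2.55 to 2.63 and 2.02 to 2.52 log2 CPM), and Ccr7, Dpp4 and Xcr1 overlapped. The part of such cells in the higher values of Card10 and Naip1 was not tested.

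IL4 changed most of the family, in both directions. In vehicle, 14 of the 39 tested members were higher in IL4 macrophages beside 30.5% of all tested genes, and 12 were lower beside 29.6%. In RA, 10 were higher beside 29.0% and 11 lower beside 26.7%. The groups of 25 of the 26 members called in vehicle did not overlap, the exception being Nod1, and nor did those of 97.5% of all genes called in vehicle. The members' shares were near those of all tested genes in both directions, and the median log2 difference was 0.00 in vehicle and 0.01 in RA, beside -0.01 and -0.00 over all tested genes. The vehicle and RA contrasts share no library: 9 members were higher in both, of 14 and 10, and 10 lower in both, of 12 and 11. Of all tested genes, 3100 were higher in both (83.9% of those in vehicle and 88.2% of those in RA) and 2813 lower in both (78.3% and 87.1%). In bulk RNA, fewer cells of a type cannot be told apart from less RNA per cell.

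**Figure D3:**
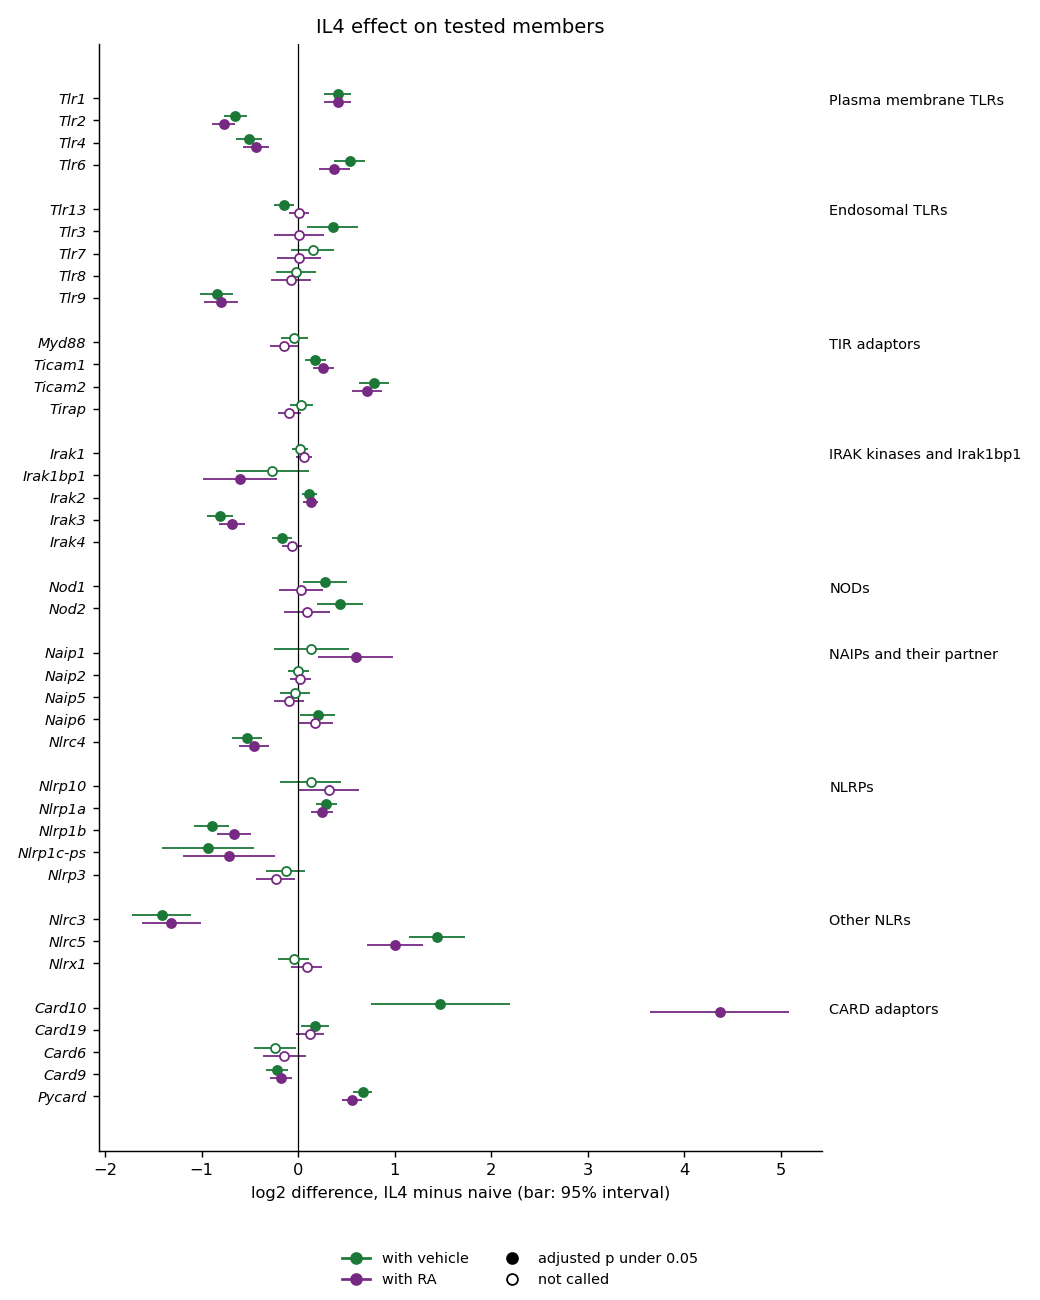
Log2 difference between IL4 and naive macrophages for all but 1 of the 39 tested members, grouped by role, with vehicle (green) and with RA (purple), with 95% intervals of the limma fit; filled circles are called at adjusted p under 0.05. Within a role members lie on both sides of 0: Tlr1 and Tlr6 to the right of Tlr2 and Tlr4, and Nlrc5 to the right of Nlrc3.

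Markers of other cell types also differed between naive and IL4 libraries. The 5 dendritic cell markers in the table (Ccr7, Dpp4, Clec9a, Xcr1 and Zbtb46, of 7 examined) summed to 5.43 to 9.58 CPM in naive and 73.6 to 107.0 CPM in IL4 libraries. Most of the sum in IL4 libraries was Ccr7, at 6.03 to 6.62 log2 CPM beside 1.86 to 2.84 in naive libraries. Zbtb46 and Clec9a were also higher with IL4, while Xcr1 and Dpp4, under 1 CPM in every library, overlapped between naive and IL4 libraries. Most of the eosinophil sum in IL4 libraries was Siglecf, at 5.85 to 6.41 log2 CPM beside 0.53 to 1.40 in naive libraries, and Ccr3 was higher too. The eosinophil markers Siglecf and Ccr3 (2 of 4) summed to 8.62 to 10.8 CPM and 68.8 to 104.5 CPM, and the 6 stromal and endothelial markers to 26.8 to 34.0 CPM and 9.17 to 17.7 CPM. The T and NK cell markers Cd247 and Klrb1c (2 of 7) summed to 0.912 to 1.23 CPM and 1.88 to 2.21 CPM, the neutrophil markers Camp and S100a8 (2 of 8) to 2.14 to 2.57 CPM and 3.48 to 4.34 CPM (S100a8 was higher in IL4 libraries, while Camp, under 1 CPM throughout, was not), and Kit (1 of 5 mast cell and basophil markers) lay at 2.57 to 3.91 CPM and 0.753 to 1.56 CPM, and none of these listed markers was at 0 throughout. None of the 6 B cell markers examined was found by symbol in the expression table. The part of these cells in the IL4 effects below was not tested.

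At the plasma membrane, IL4 lowered Tlr2 and Tlr4 and raised Tlr1 and Tlr6, in vehicle and in RA. Tlr2 measured 8.99, 9.09 and 9.01 log2 CPM in naive vehicle and 8.91, 8.94 and 8.92 in naive RA libraries, so that every naive library lay above every IL4 library given above. Its log2 difference was -0.65 in vehicle (SE 0.05, adjusted p = 2.68e-07) and -0.77 in RA (SE 0.05, adjusted p = 5.31e-08). Tlr4 fell by 0.51 in vehicle (adjusted p = 1.02e-05) and by 0.43 in RA (adjusted p = 4.85e-05). Tlr6 rose by 0.54 and 0.37 (adjusted p = 3.41e-05 and 0.000795) and Tlr1 by 0.41 in both (adjusted p = 0.000111 and 0.000121). Tlr1 and Tlr6 are neighbours on chromosome 5 and share sequence (20.0% and 16.6% of 31-base words also occur in other genes), so reads may be divided between them.

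Tlr9, the endosomal receptor for unmethylated CpG DNA, measured 5.21, 5.30 and 5.36 log2 CPM in naive vehicle, 5.12, 5.33 and 5.40 in naive RA, 4.39, 4.50 and 4.45 in IL4 vehicle and 4.62, 4.51 and 4.34 in IL4 RA libraries. The 6 IL4 libraries lay below the 6 naive libraries, and the RA and vehicle libraries overlapped within each state. The log2 difference was -0.84 in vehicle (SE 0.08, adjusted p = 8.92e-07) and -0.80 in RA (adjusted p = 1.68e-06), a fall of 1.80-fold and 1.74-fold. Tlr3 measured 5.03, 5.22 and 5.20 in naive vehicle and 4.74, 5.14 and 5.28 in naive RA libraries, and with IL4 it rose by 0.36 in vehicle (adjusted p = 0.0208) and differed by 0.01 in RA (adjusted p = 0.951). That call ended without naive vehicle 2 (0.0779) or IL4 vehicle 2 (0.0921). Tlr13, a receptor for bacterial ribosomal RNA, fell by 0.14 in vehicle (adjusted p = 0.0208; 0.088, 0.0841 and 0.0652 without naive vehicle 4, IL4 vehicle 2 or 3), and Tlr7 and Tlr8, the sensors of single-stranded RNA on chromosome X, were not called.

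Per kilobase of transcript, a scale on which TLRs can be set side by side, Tlr2 led in naive vehicle with 173.6 CPM per kb, ahead of Tlr13 (106.1), Tlr8 (87.6), Tlr1 (47.1), Tlr4 (43.9) and Tlr7 (39.4). Tlr9 (11.3), Tlr3 (8.06) and Tlr6 (7.42) formed a lower tier, and Tlr5 (0.183), Tlr11 (0.0738) and Tlr12 (0.0390) lay near the floor. In naive vehicle the libraries of Tlr4 overlapped those of Tlr1 and those of Tlr7, while Tlr1 lay just above Tlr7. Those of Tlr3 and Tlr6 overlapped, as did those of Tlr11 and Tlr12. In IL4 RA libraries Tlr13 (105.9) stood above Tlr2 (94.7), with overlapping libraries, and Tlr9 (6.47) came after Tlr6 (10.2) and Tlr3 (7.61), its libraries overlapping those of Tlr3.

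**Figure D4:**
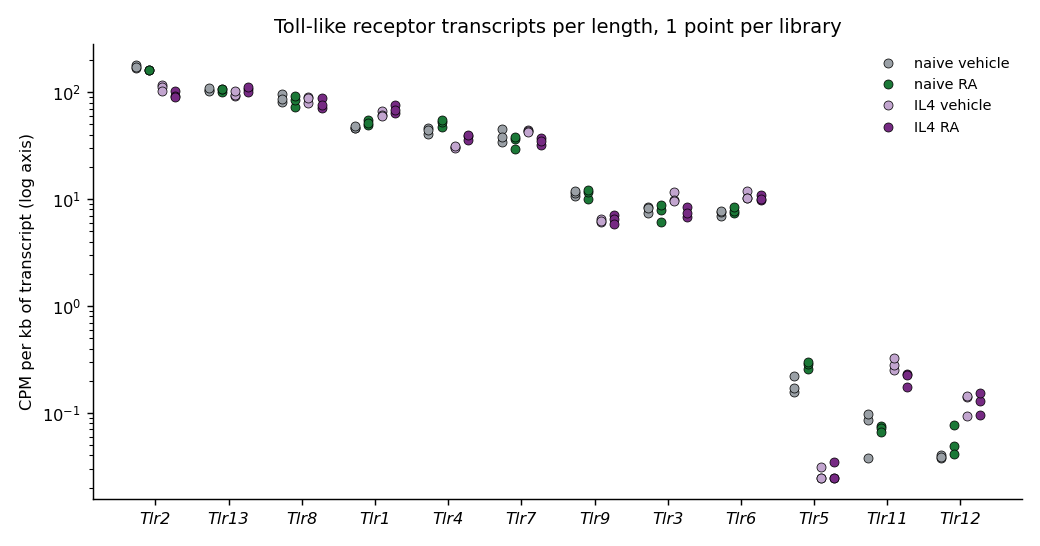
CPM per kilobase of the principal transcript (log axis) for 12 TLRs, 1 point per library, coloured by group and ordered by level in naive vehicle; low values include the authors' prior count. Tlr2 and Tlr9 step down with IL4, Tlr1 and Tlr6 step up, and Tlr5, Tlr11 and Tlr12 lie well under the other 9.

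Of the receptors too low to test, Tlr5, the flagellin receptor, had about 19.9, 24.5 and 20.2 reads in naive vehicle and 27.1, 31.8 and 33.6 in naive RA libraries, but 0, 0 and 1 in IL4 vehicle and 1, 0 and 0 in IL4 RA libraries. The IL4 libraries were thus at or within 1 read of 0. Tlr11, a receptor for profilin of protozoa, had 2 to 10.1 reads in naive libraries, 26.6 to 46.6 in IL4 vehicle and 14.9 to 21.2 in IL4 RA. Its partner Tlr12 had 1.9 to 6 reads in naive and 7.2 to 18.2 in IL4 libraries. Card14, a CARD scaffold of skin keratinocytes, had 10.3 to 23.9 reads with no separation of groups.

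Among adaptors and kinases, IL4 raised Ticam2 and Ticam1, the pair through which Tlr4 activates interferon genes, and lowered Irak3. Ticam2 measured 5.24, 5.45 and 5.45 log2 CPM in naive vehicle, 5.52, 5.54 and 5.58 in naive RA, 6.00, 6.26 and 6.23 in IL4 vehicle and 6.29, 6.32 and 6.17 in IL4 RA libraries. All IL4 libraries lay above all naive ones, with a log2 difference of 0.78 in vehicle (SE 0.07, adjusted p = 7.06e-07) and 0.71 in RA (adjusted p = 2.03e-06). Ticam2 shares 14.0% of its 31-base words with Tmed7, a neighbouring gene with which it forms readthrough transcripts, and Tmed7 itself fell by 0.25 and 0.31 (adjusted p = 4.85e-05 and 8.74e-06). Ticam1 rose by 0.18 and 0.26 (adjusted p = 0.00773 and 0.000649).

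Irak3 fell by 0.81 in vehicle (SE 0.06, adjusted p = 1.43e-07) and by 0.68 in RA (SE 0.06, adjusted p = 8.34e-07). Irak2 was higher by 0.11 and 0.13 (adjusted p = 0.0147 and 0.0071); the former call ended without naive vehicle 4 (0.0602) or IL4 vehicle 3 (0.0552), and both ended with quantile normalization (0.215 and 0.599). Irak4, the kinase that starts the cascade, fell by 0.16 in vehicle (adjusted p = 0.0103), and Irak1bp1 by 0.60 in RA (adjusted p = 0.0103), where its libraries were widely spread (0.49, 0.91 and 1.36 log2 CPM beside 1.57, 1.49 and 1.52 in naive RA). Myd88, Tirap and Irak1 were called in neither IL4 contrast. The Myd88 libraries in RA did not overlap (-0.15, adjusted p = 0.0739), and that fall was called under 6 alternatives, among them quantile normalization (0.00952), only the groups compared (0.0135) and without IL4 vehicle 4 (0.0147).

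The NLRs split by IL4. Nlrc5 measured 5.75, 5.99 and 5.91 log2 CPM in naive vehicle and 5.53, 5.93 and 6.16 in naive RA libraries, all below every IL4 library. The rise was 1.44 in vehicle (SE 0.13, adjusted p = 7.78e-07), a fold of 2.71, and 1.00 in RA (SE 0.13, adjusted p = 2.84e-05). Nlrc3, an NLR that restrains innate signalling, measured 3.51, 3.43 and 3.53 in naive vehicle, 3.29, 3.20 and 3.35 in naive RA, 2.01, 1.93 and 2.30 in IL4 vehicle and 2.20, 1.59 and 2.12 in IL4 RA libraries. The IL4 libraries were the 6 lowest, and the fall was 1.41 in vehicle (SE 0.14, adjusted p = 1.55e-06) and 1.31 in RA (SE 0.14, adjusted p = 3.5e-06).

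The Nlrp1 cluster on chromosome 11 also moved both ways. Nlrp1b, the receptor activated by anthrax lethal toxin, measured 5.02, 5.12 and 5.21 log2 CPM in naive vehicle and 4.06, 4.26 and 4.34 in IL4 vehicle libraries, and 5.03, 5.02 and 4.90 in naive RA and 4.48, 4.25 and 4.23 in IL4 RA libraries, with the IL4 libraries below. It fell by 0.89 in vehicle (SE 0.08, adjusted p = 7.95e-07) and 0.66 in RA (adjusted p = 1.6e-05). The pseudogene Nlrp1c-ps measured 1.94, 1.52 and 2.04 in naive vehicle and 0.88, 0.73 and 1.09 in IL4 vehicle libraries and fell by 0.93 (SE 0.22, adjusted p = 0.00246). In RA it measured 1.79, 1.34 and 1.47 without and 1.31, 0.40 and 0.75 with IL4, and the fall of 0.71 (adjusted p = 0.0139) was lost without naive RA 2 (0.0585) or IL4 RA 3 (0.0703). Nlrp1a was higher by 0.29 and 0.25 (adjusted p = 0.000274 and 0.0011). The 3 genes share 6.07% to 9.91% of their 31-base words with other genes, mainly with one another. Nlrp3 was not called, with differences of -0.13 (adjusted p = 0.258) and -0.23 (adjusted p = 0.052), and it was called in RA under several alternatives, among them without IL4 vehicle 2 (0.0261) or 4 (0.0323) or IL4 RA 2 (0.00861).

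Nod2 measured 3.70, 4.05 and 3.95 log2 CPM in naive vehicle and rose to the IL4 vehicle values above by 0.43 (SE 0.11, adjusted p = 0.00379), while in RA, with 3.75, 3.83 and 4.04 in naive libraries, it differed by 0.09 (adjusted p = 0.502). Nod1 measured 4.62, 4.78 and 4.68 in naive vehicle and 4.47, 4.71 and 4.76 in naive RA libraries, and was higher in IL4 vehicle by 0.28 (SE 0.11, adjusted p = 0.0356). Its lowest IL4 vehicle library lay under the highest naive one, and the call ended without naive vehicle 2 (0.105) or 4 (0.0821) or IL4 vehicle 2 (0.169) or 3 (0.0868). The Nod1 call also ended with no intensity trend (0.0602). Nlrc4, the adaptor of the NAIP inflammasome, fell by 0.53 and 0.46 (adjusted p = 2.59e-05 and 0.000117). Naip1 differed by 0.14 in vehicle (adjusted p = 0.531) and rose by 0.60 in RA (SE 0.18, adjusted p = 0.0122; 0.0601 without naive RA 2 and 0.0566 without IL4 RA 3). Naip6, a flagellin receptor, rose by 0.20 in vehicle at an adjusted p of 0.0491, and that call ended without naive vehicle 2 (0.207) or 4 (0.0541), naive RA 3 (0.0572), IL4 vehicle 2 (0.0561), 3 (0.148) or 4 (0.084), or IL4 RA 4 (0.0611). The Naip6 call also ended with no filter on low values (0.0504), median centring (0.0625), quantile normalization (0.0785) or no intensity trend (0.0763). Naip2, Naip5, Nlrp10 and Nlrx1 were called in neither contrast.

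Of the CARD adaptors, Pycard, the bridge between inflammasome receptors and caspase 1, rose with IL4. It measured 5.52, 5.46 and 5.47 log2 CPM in naive vehicle, 5.69, 5.63 and 5.58 in naive RA, 6.18, 6.10 and 6.18 in IL4 vehicle and 6.10, 6.22 and 6.25 in IL4 RA libraries. The naive and IL4 libraries stood well apart, with a rise of 0.67 in vehicle (SE 0.05, adjusted p = 4.61e-08) and 0.56 in RA (SE 0.05, adjusted p = 3.22e-07). With RA it was not called in either state, with log2 differences of 0.15 in naive and 0.04 in IL4 macrophages (limma adjusted p = 0.0837 and 0.676). The naive groups did not overlap, and that rise was called with library weights (0.0184) and without IL4 RA 2 (0.0408). The exons of Pycard overlap an antisense gene by 485 bases. Card10, counted above among the members called higher in both contrasts, differed by 1.47 in vehicle (SE 0.33) and by 4.36 in RA (SE 0.33). The naive vehicle group was at 0 reads, so the 1.47 depends on the prior count. On the log2(CPM + 1) scale the differences were 0.18 and 1.63, and the call in vehicle ended (0.118). The limit given for the RA effect of Card10 holds here too.

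Card9, which relays signals of C-type lectin receptors, measured 5.57, 5.60 and 5.51 log2 CPM in naive vehicle, 5.63, 5.68 and 5.52 in naive RA, 5.36, 5.36 and 5.32 in IL4 vehicle and 5.47, 5.50 and 5.33 in IL4 RA libraries. The IL4 libraries lay slightly below the naive ones, by 0.22 in vehicle (a difference of -0.22, SE 0.05, adjusted p = 0.0034) and 0.18 in RA (-0.18, adjusted p = 0.0129; 0.065 without naive RA 3 and 0.0637 without IL4 RA 4). RA left Card9 uncalled in both states (0.05 and 0.09). Card19 rose by 0.18 with IL4 in vehicle (adjusted p = 0.0385), a call lost without naive vehicle 2 (0.0806), 3 (0.0581) or 4 (0.092) or IL4 vehicle 2 (0.175). Median centring (0.0531), quantile normalization (0.128) and no intensity trend (0.0677) also ended it. Card6 was not called, although with the replicate block it passed in vehicle (0.0468).

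**Figure D5:**
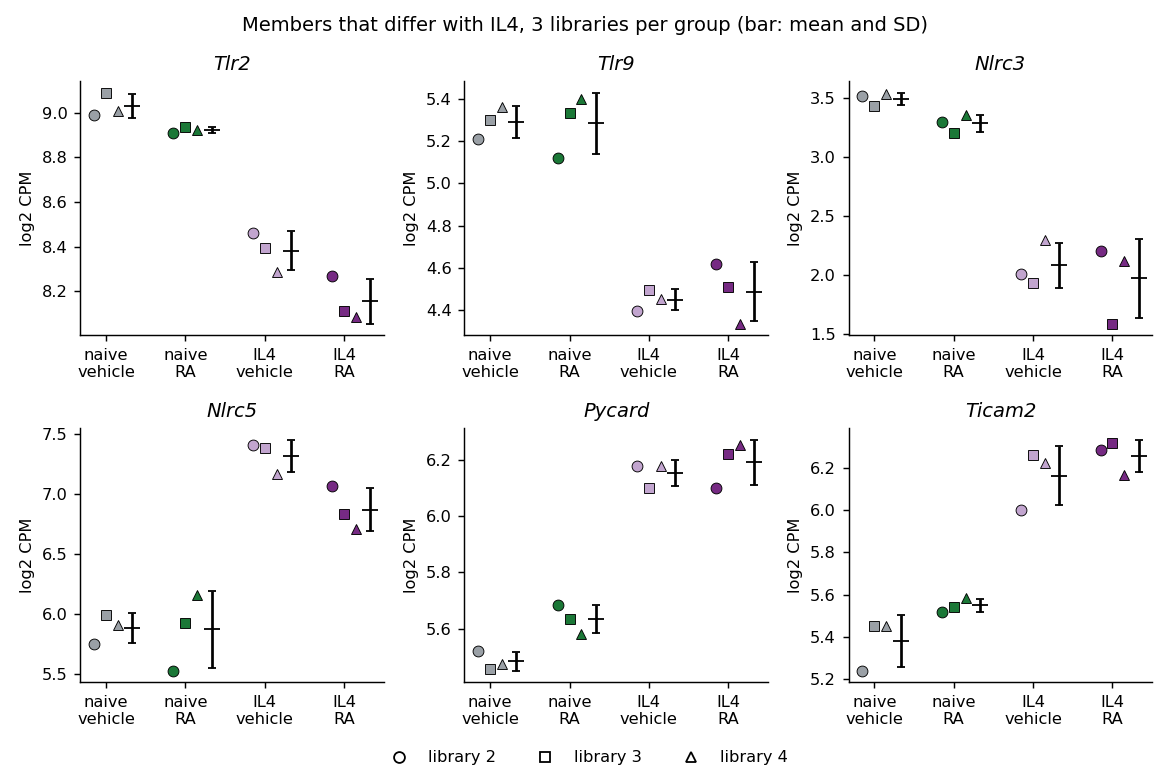
Log2 CPM in each library of 6 members that differed with IL4; symbols mark the library number, and the bars beside them the mean and SD of the 3 libraries. Tlr2, Tlr9 and Nlrc3 are lower and Nlrc5, Pycard and Ticam2 higher in the 6 IL4 libraries than in the 6 naive ones.

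Altogether 11 tested members were called in no contrast: Myd88, Tirap, Irak1, Tlr7, Tlr8, Nlrp3, Nlrp10, Nlrx1, Naip2, Naip5 and Card6. Of these, Myd88, Tlr7, Nlrp3, Nlrp10 and Card6 passed the threshold in some contrast under at least 1 alternative.

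Genes that work with these receptors were read from the same fit as lists. Their counts stand beside the shares of all tested genes: 3.24% higher and 3.03% lower with RA in naive macrophages, 6.5% and 5.18% with RA in IL4 macrophages, and 30.5% and 29.6% with IL4 in vehicle. The median log2 difference over all tested genes was -0.00, 0.00 and -0.01 in these contrasts. Of 15 tested genes for NOD and Card9 signalling, RA changed 4 in naive (1 higher, 3 lower) and 5 in IL4 macrophages (1 higher, 4 lower; median -0.08 and -0.07). Malt1, the protease bound in complexes with Card10, fell with RA by 0.32 and 0.34 and rose with IL4 by 2.18 in vehicle (all adjusted p at or below 0.000136). The lectin receptor gene Clec4n fell with RA by 0.37 and 0.54, and Ripk2, the kinase of Nod1 and Nod2, fell by 0.47 in IL4 macrophages (adjusted p = 0.00344) and rose by 1.27 with IL4 in vehicle (adjusted p = 3.72e-08). With IL4, 7 of the 15 were higher (46.7% beside 30.5%) and 5 lower (33.3% beside 29.6%) in vehicle (median 0.07).

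Of 20 inflammasome partners and outputs, RA raised 3 and lowered 3 in naive, and raised 3 and lowered 6 in IL4 macrophages (median 0.00 and -0.14). Il1a, a cytokine released on inflammasome activation, rose by 1.60 and 1.80 (adjusted p = 0.000178 and 4.19e-05), P2rx7, the ATP receptor that triggers Nlrp3, by 0.52 and 0.50, and Gsdme, a pore-forming gasdermin, fell by 0.56 and 0.50. Casp1, the protease recruited through Pycard, fell by 0.22 and 0.37 (adjusted p = 0.0352 and 0.000706). In vehicle, IL4 raised 11 of the 20 (55.0% beside 30.5% of all tested genes) and lowered 4 (20.0% beside 29.6%; median 0.24 beside -0.01); Gbp2, an interferon-inducible GTPase, rose by 3.35, whereas Il1b, the cytokine matured by caspase 1, fell by 1.28 (adjusted p = 0.000111).

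Of 15 tested co-receptors, chaperones and trafficking factors of TLRs, RA raised 2 in naive and lowered 1 in IL4 macrophages, while IL4 in vehicle raised 5 (33.3%, near the 30.5% of all tested genes) and lowered 7 (46.7% beside 29.6%; median -0.13). Cd14, which hands lipopolysaccharide to Tlr4, fell with IL4 by 1.86 (adjusted p = 6.69e-10). Ly96, the subunit that binds lipopolysaccharide on Tlr4, differed by -0.13 (adjusted p = 0.108). Of 22 downstream kinases, ligases and transcription factors, RA raised 2 in naive and raised 1 and lowered 1 in IL4 macrophages, and the kinase gene Ikbke rose by 0.71 and 0.98 (adjusted p = 4.81e-06 and 1.24e-07). IL4 in vehicle raised 7 and lowered 7 of the 22, which at 31.8% each is near the shares of all tested genes (median -0.01).

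Of 15 tested inhibitors of TLR and IL1 receptor signalling, RA lowered 1 in naive and raised 1 and lowered 2 in IL4 macrophages, where Socs1 fell by 0.81 (adjusted p = 0.00895). IL4 in vehicle raised 8 (53.3% beside 30.5%), including Socs1 by 2.21 and Il1rl1 by 2.22, and lowered 5 (33.3% beside 29.6%; median 0.16). Of 10 RIG-I-like and DNA sensors, which recognise viral nucleic acids outside endosomes, IL4 in vehicle raised 9 and lowered 1 (90.0% and 10.0% beside 30.5% and 29.6%; median 0.82 beside -0.01). RA raised 1 of them in naive (median 0.02) and raised 1 and lowered 1 in IL4 macrophages, where the median of the list was -0.33 beside 0.00 over all tested genes. Ifih1, a sensor of long double-stranded RNA, rose by 1.41 with IL4 (adjusted p = 1.36e-06) and fell by 0.49 with RA in IL4 macrophages (adjusted p = 0.0375). No listed gene was called in the test of the difference between RA effects.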

How the data were processed

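Polyadenylated RNA of 12 libraries was prepared with a strand-specific kit and sequenced from 1 end on a NovaSeq instrument, per the labels' protocols. The submitters' processing notes name bcl2fastq 2.20, Salmon 0.13.1, edgeR 3.32.1 and the build GRCm38. The authors deposited log2 CPM, scaled with TMM factors per the labels and with a small prior count, for 13553 genes (38 without a symbol). Read counts were not analysed here, and the depth was estimated from the steps between low values.

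The deposited log2 values were fitted in limma 3.58.1 (R 4.3.3) with 1 mean per group over all 12 libraries, for the 12116 genes that reached 1 CPM in 3 or more libraries, with moderated statistics and an intensity trend. Two-sided p-values were adjusted (Benjamini-Hochberg) for each of the 5 contrasts alone, with calls at adjusted p under 0.05. Such a filter and the prior count understate changes of low genes. The fit was tested on simulated data.

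The members and lists were chosen with earlier results of these data known. In all counts 1 member is included whose own values are not reported here. Values in every library are given for up to 3 called members with the largest increase and decrease per contrast and for Myd88, Tlr2, Tlr3, Tlr4, Tlr9, Nlrp3, Nod1, Nod2, Naip1, Nlrc5, Irak3, Pycard and Card9, and for Irak1bp1 in RA and the untested genes, which were added after their values were seen. Up to 4 called genes were named per list and contrast, but these were not always the ones with the largest change. With RA in naive macrophages, larger rises on the NOD and Card9 list and on the inflammasome list were left out. Ly96 was named after its values were seen. Tram1, on the list of trafficking factors, encodes a protein of the endoplasmic reticulum unrelated to Ticam2.

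Positions and promoters come from RefSeq GRCm38.p6, transcript lengths and shared 31-base words from GENCODE vM21. Correlations of deviations between same-numbered libraries were 0.245, 0.193 and 0.128 in the comparison of IL4 vehicle with IL4 RA. They were 0.14, 0.209 and 0.182 in that of both vehicle groups. In the comparison of both naive groups they were 0.511, 0.277 and 0.0706, and in that of both RA groups 0.0895, 0.186 and 0.126. Whether the numbers pair libraries is not given in the sources used here. The reported tests used no replicate block, and the alternative with the block was fitted over all 4 groups at once. Alternatives covered the filter, the scaling, the pseudocount, the moderation, library weights, the groups fitted, the replicate block and leaving out each library.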

Additional observations from a re-analysis of the deposited data

Results flagged for a closer look

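Card10 passed the threshold in the test of whether its response to RA differed between IL4 and naive macrophages. The RA effect in IL4 macrophages exceeded that in naive macrophages by 2.90 on the log2 scale (SE 0.47, limma adjusted p = 0.0212). The gene entered the test only through the 3 IL4 RA libraries that make the difference, so this p-value is no independent support. The call ended without naive vehicle 4 (0.0521), naive RA 3 (0.0676) or IL4 vehicle 3 (0.0524), and without any IL4 RA library the gene was not tested. All 3 naive vehicle libraries were at 0 reads, so the size of this difference depends on the prior count, and on the log2(CPM + 1) scale it was 1.46. Groups of 3 libraries were not examined for single outlying libraries.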

How the results depend on the processing

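Of 63 called pairs of a member and a contrast, 44 were called under all alternatives that could be fitted (12 leaving out a library and 10 others), and 0 changed sign. The 44 include Card10 for RA in IL4 macrophages and for IL4 in RA. With a filter at 4 CPM or without an IL4 RA library, Card10 was not fitted. It passed the filter only through the group where it is high, so its pairs are no independent support. Of 132 pairs not called, 17 passed under at least 1 alternative and 48 changed sign, among them Tlr13 with IL4 in RA, which reversed from 0.01 to -0.21 with quantile normalization (adjusted p = 0.00253). The number of members higher with RA in naive macrophages (5) became 3 with only the groups compared, and ranged from 2 to 6 when a library was left out. The number lower with RA in IL4 macrophages (4) became 1 with no intensity trend and 2 with robust moderation, and ranged from 0 to 5 when a library was left out. The difference between RA effects (1 member, Card10) became 0 with a filter at 4 CPM, which Card10 did not pass, and ranged from 0 to 1 when a library was left out; without an IL4 RA library Card10 did not pass the filter. Except where stated, the cause was not tested. With the replicate block no call was lost: Tlr13 was gained under RA in IL4 macrophages (adjusted p = 0.0321, 7 higher), Card6 with IL4 in vehicle (0.0468, 13 lower) and Nlrp3 with IL4 in RA (0.0137, 12 lower), and the other counts did not move. Scaling moved the median of all tested genes to -0.06 at most (quantile normalization). At this depth a gene with few reads, such as Card10 outside the IL4 RA group, Tlr5, Tlr11 or Tlr12, allows no firm fold change.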
